A study of Mus musculus with 4 samples.

Results

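Complement components and regulators were followed in mouse prefrontal cortex (PFC) through 9 genes taken by their symbols, out of 23420 symbols in the count tables. The 9 were the C1q chains *C1qa*, *C1qb* and *C1qc*, the central components *C4a*, *C4b* and *C3*, the C1 inhibitor *Serping1*, and the anaphylatoxin receptors *C3ar1* and *C5ar1*. All 9 had counts in every sample and passed the filter on low counts. Total RNA of bulk PFC came from C57BL6/J wild-type mice and formed 2 groups with 2 samples each. The labels give the control group as injected with GFP AAV9, whereas the paper compares with a scrambled short hairpin RNA (shRNA) virus, and the sources used here do not say whether these are the same virus. The *Ash1L* shRNA group was injected with an AAV9 that carries, under a U6 promoter and with a GFP tag, a hairpin against the histone methyltransferase *Ash1l*. The series text gives an age of 6 to 8 weeks, the methods an injection into the medial PFC at 5 weeks. The paper reports seizures and early death in mice given the *Ash1L* shRNA virus. Whether the mice in the RNA pools had seizures is not given in the sources used here, and the part of seizures in the values below was not tested. Tissue punches with GFP fluorescence were pooled from 3 mice for each sample according to the methods, whereas the series text names 3 *Ash1L* shRNA and 2 control mice. The methods name mice of both sexes and do not give the sex of the mice in each RNA pool. U6 is active in every cell type that the virus enters, and a punch also holds cells without virus.

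Complement is a cascade of proteins that tags cells and synapses and recruits phagocytes. C1q binds a target and activates the proteases C1r and C1s, these cut C4 and C2, and the resulting enzyme cuts C3, whose fragments coat the target or signal through receptors on myeloid cells. In the healthy brain microglia are the main source of C1q, while C4, C3 and C1 inhibitor can come from several cell types. C1q and C3 take part in the pruning of synapses.

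Total counts per sample lay between 14251190 and 35764874, lowest in control sample 1. *Ash1l* itself had 245 and 290 CPM (normalised counts, scaled to a common library size with TMM, which corrects for composition) in the control samples and 216 and 138 CPM with *Ash1L* shRNA, which is -0.60 on the log2 scale. Neuronal markers were abundant in all samples, with *Snap25* between 2002 and 2881 CPM, as was the oligodendrocyte gene *Mbp*. *Ash1L* shRNA sample 2 stood apart from the other samples in its microglial and astrocyte markers, and values without it and without *Ash1L* shRNA sample 1 are given below where they matter. Nothing in the labels says that the samples of a group are more than separate pools, so p-values measure the spread between these samples. With 2 samples in each group, the smallest two-sided p of an exact permutation test would be 0.333.

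The comparison asked which complement genes differed after knockdown of *Ash1L* in PFC. *C4a*, *C3* and *Serping1* were lower in the *Ash1L* shRNA samples with no overlap between groups, *C4a* being 5.08-fold, *C3* 4.56-fold and *Serping1* 1.82-fold lower. The C1q chains had no common direction, being higher than the controls in *Ash1L* shRNA sample 1 and lower in sample 2. *C3ar1* and *C5ar1* had higher means in the *Ash1L* shRNA samples without passing the test. By the limits of the study's methods, an unadjusted p under 0.05 and at least a 1.2-fold change, 3 of 9 members were DOWN and 0 of 9 were UP in edgeR's quasi-likelihood test. Over all 16232 genes tested, 8.28% were DOWN and 8.61% were UP. For 3 members the groups did not overlap with *Ash1L* shRNA lower, and for 1 with *Ash1L* shRNA higher, against 26.8% and 26.5% of all genes (53.2% in either direction). The median log2 fold change was 0.02 over the members and -0.00 over all genes tested. At an adjusted p under 0.05 in edgeR's quasi-likelihood test, 0 members passed, as did 0.00616% of all genes (1 gene), whereas 3 members and 16.9% of all genes had an unadjusted p under 0.05. DESeq2 passed 1 member at that limit, *C4a*, and edgeR's likelihood ratio test passed 2, *C4a* and *C3*, where these tests passed 2.08% and 2.95% of all genes.

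**Figure D1:**
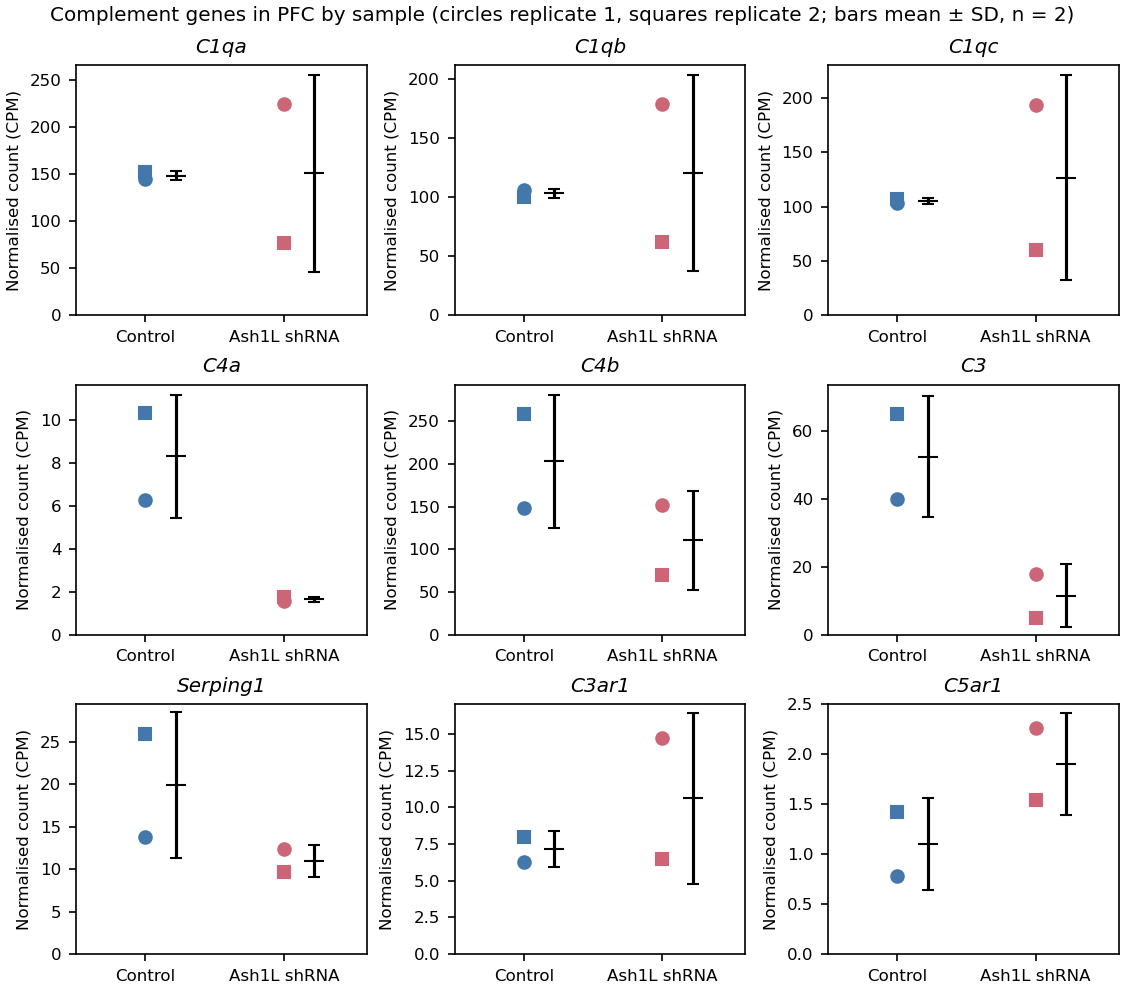
Normalised counts (CPM, linear axis) of the 9 complement genes in each sample, control in blue and *Ash1L* shRNA in red, with circles for replicate 1 and squares for replicate 2 and black bars for the mean ± SD (n = 2). *C4a*, *C3* and *Serping1* lie lower in both *Ash1L* shRNA samples, while the C1q chains lie above the controls in sample 1 and below them in sample 2.

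*C1qa* (ENSMUSG00000036887), *C1qb* (ENSMUSG00000036905) and *C1qc* (ENSMUSG00000036896) encode the chains that together form C1q, the recognition protein of the classical pathway. They lie side by side on the minus strand of chromosome 4 of mm10, from 136895917 to 136898803, from 136880129 to 136886187 and from 136889804 to 136893065, within 18675 bases. The promoters of *C1qb* and *C1qc* are shown because these genes moved together from sample to sample (RefSeq, GRCm38.p6, 250 bases before to 50 after the annotated start). Capitals mark matches to GAGGAA on either strand, the core bound by the myeloid factor PU.1, to the C/EBP motif TTNNGNAA on either strand, and to the NF-kB motif.
C1qb, chr4:136886151-136886450, minus strand: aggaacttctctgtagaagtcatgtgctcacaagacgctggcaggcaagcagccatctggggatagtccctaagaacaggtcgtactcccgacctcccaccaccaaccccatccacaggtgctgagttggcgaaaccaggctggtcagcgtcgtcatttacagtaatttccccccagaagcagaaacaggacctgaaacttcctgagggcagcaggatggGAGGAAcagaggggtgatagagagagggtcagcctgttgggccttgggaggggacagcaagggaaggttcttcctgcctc
C1qc, chr4:136892865-136893164, minus strand: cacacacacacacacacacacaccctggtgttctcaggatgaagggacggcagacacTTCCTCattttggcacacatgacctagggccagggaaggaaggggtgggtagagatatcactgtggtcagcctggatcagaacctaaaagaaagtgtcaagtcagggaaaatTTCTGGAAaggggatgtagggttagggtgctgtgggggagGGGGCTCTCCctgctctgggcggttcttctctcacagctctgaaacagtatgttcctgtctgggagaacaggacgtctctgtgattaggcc
GAGGAA was found in both windows and in 28.3% of all 32851 promoters of this length. The NF-kB motif was found in *C1qc* and in 8.5% of all promoters, and TTNNGNAA in *C1qc* and in 40.7%. A match is a description of letters and not a bound site. Promoter sequences were matched for 5 of the 9 members.

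*C1qa* had 145 and 152 CPM in control samples 1 and 2, and 225 and 77.0 CPM in *Ash1L* shRNA samples 1 and 2. *C1qb* had 106 and 100.2 CPM in the controls and 179 and 61.8 CPM in the *Ash1L* shRNA samples. *C1qc* had 103 and 107 CPM in the controls and 193 and 60.3 CPM in the *Ash1L* shRNA samples. The controls were close to each other for all of the chains, and the *Ash1L* shRNA samples lay on opposite sides of them. Summed over the chains, C1q was 357 ± 3.91 CPM (SD, n = 2) in control and 398 ± 281 CPM (SD, n = 2) in *Ash1L* shRNA samples, and *Ash1L* shRNA sample 1 held 3.0 times the level of sample 2. The log2 fold change of the sum was 0.16 (standard error 0.51) and an adjusted p of 0.896 in edgeR's quasi-likelihood test, and those of the chains were 0.02, 0.23 and 0.27. The sum was not called with all samples, and its direction depended on which *Ash1L* shRNA sample was kept. Without *Ash1L* shRNA sample 2 the sum had a log2 fold change of 0.75, and without *Ash1L* shRNA sample 1 it had -0.85. In these fits the spread came from the controls alone. *C1qa*, the chain nearest to 0, also changed sign without control sample 1, to -0.00. Blocked by replicate number, the sum had a log2 fold change of -0.049.

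The chains kept nearly the same proportions throughout. *C1qa* took 41.0% and 42.3% of the C1q counts in the controls and 37.7% and 38.7% in the *Ash1L* shRNA samples. *C1qb* took between 27.9% and 31.0%, and *C1qc* between 29.1% and 32.4%, over the 4 samples. The share of *C1qa* was lower in both *Ash1L* shRNA samples by a few percentage points. Its groups did not overlap, and the same held for the CPM of 53.2% of all genes tested.

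Microglial markers moved with C1q. The summed level of 15 microglia markers was 971 and 1053 CPM in the controls, 1279 CPM in *Ash1L* shRNA sample 1 and 514 CPM in sample 2, and no marker was at 0. In sample 1, 11 of 15 markers lay above both controls, and in sample 2, 14 of 15 lay below both. Of the most abundant markers, *Ctss*, a lysosomal protease, had 214 and 284 CPM in the controls and 263 and 97.7 CPM in the *Ash1L* shRNA samples. *Csf1r*, the receptor that microglia need to survive, had 190 and 217 CPM against 200.1 and 93.0 CPM. Among the 15 genes, 1 was UP and 0 were DOWN, and their median log2 fold change was -0.08. Set against the microglia marker sum, C1q was 36.4% and 34.1% in the controls and 46.7% and 38.7% in the *Ash1L* shRNA samples. This ratio was higher in both *Ash1L* shRNA samples, by a small margin in sample 2. Its groups did not overlap, and the same held for the CPM of 53.2% of all genes tested. In a fit scaled to microglia marker counts the chains had log2 fold changes of 0.15, 0.35 and 0.37, and 0 were called. That scaling moved the median log2 fold change of all genes to 0.46, so each chain lay below the median gene. Fewer cells of a type and less RNA per cell cannot be told apart in bulk samples.

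**Figure D2:**
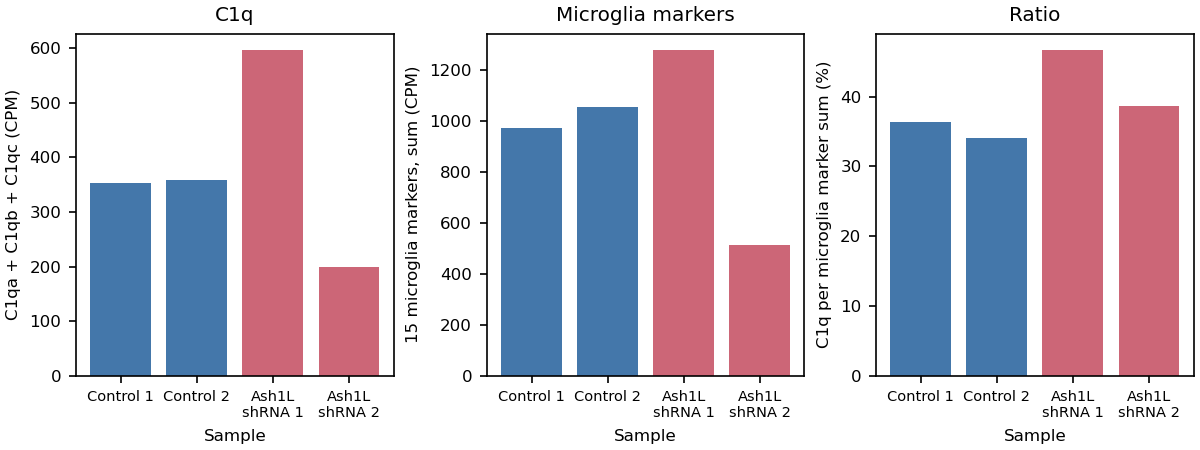
Summed CPM of *C1qa*, *C1qb* and *C1qc* (left), summed CPM of 15 microglia markers (middle) and the first as a percentage of the second (right), with 1 bar for each sample, control in blue and *Ash1L* shRNA in red. C1q and the markers are both highest in *Ash1L* shRNA sample 1 and lowest in sample 2, and the ratio is between 34.1% and 46.7% in all samples.

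*C4a* (ENSMUSG00000015451, chromosome 17 from 34809092 to 34823464) and *C4b* (ENSMUSG00000073418, chromosome 17 from 34728380 to 34743882) are near copies on the minus strand, 65209 bases apart in the class III region of the major histocompatibility complex. *C4b* encodes complement C4, which after cleavage binds to the target surface. *C4a*, also called sex-limited protein, has no coding transcript in GENCODE vM21 and is listed there as a processed transcript. The annotated transcripts C4a-207 and C4b-201, of 5371 and 5379 bases, aligned over 5367 bases with 96.1% identity. Of all 50-base stretches of the *C4a* transcript 35.2% occurred unchanged in that of *C4b*, and of all 100-base stretches 16.5%. The setting of the counting for reads that fit both genes is not given in the sources used here. The part of the coding sequence of *C4b* in which the copies differ most, bases 1153 to 1252, is shown with *C4a* below, capitals marking the 15 bases that differ (GENCODE vM21, both 5′ to 3′ on the transcript).
C4a: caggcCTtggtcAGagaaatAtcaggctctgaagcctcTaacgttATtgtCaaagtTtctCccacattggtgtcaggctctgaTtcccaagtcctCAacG
C4b: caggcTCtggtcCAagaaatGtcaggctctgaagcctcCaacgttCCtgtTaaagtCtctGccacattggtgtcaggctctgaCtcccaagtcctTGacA
Reads across such stretches tell the copies apart, whereas the longest identical run was 433 bases.

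*C4a* had 89 and 363 counts in control samples 1 and 2, or 6.30 and 10.3 CPM, against 43 and 36 counts for *Ash1L* shRNA samples 1 and 2, or 1.57 and 1.74 CPM. Both *Ash1L* shRNA samples were alike and well below both controls. On the log2 scale the difference was -2.35 (standard error 0.34), with an unadjusted p of 0.00035 and an adjusted p of 0.234 in edgeR's quasi-likelihood test, at rank 21 of all genes by p. By these limits *C4a* was DOWN in all 14 alternative fits, with log2 fold changes from -2.64 to -1.86 and adjusted p-values from 2.16e-06 to 0.993 over these fits. *C4b* was far more abundant, with 148 and 258 CPM in the controls and 151 and 69.6 CPM in the *Ash1L* shRNA samples. *Ash1L* shRNA sample 1 lay level with control sample 1, so the groups overlapped. The log2 fold change of *C4b* was -0.88 (standard error 0.45) and an adjusted p of 0.381 in edgeR's quasi-likelihood test. Without *Ash1L* shRNA sample 1 *C4b* was DOWN at -1.56, and without *Ash1L* shRNA sample 2 or control sample 2 it had -0.43 and was not called. The counts of both genes were also added, since a sum does not depend on how assigned reads were divided between them. Reads left out, or counted for both genes, would still affect it. The sum, made up mostly of *C4b* counts, gave -0.92 on the log2 scale (standard error 0.44) and an adjusted p of 0.358 in the same test. This sum was DOWN without control sample 1, at -1.25, and without *Ash1L* shRNA sample 1, at -1.58.

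The part of the C4 counts assigned to *C4a* was 4.08% in control sample 1 (Wilson 95% interval 3.33% to 4.997%) and 3.85% in control sample 2 (3.48% to 4.26%). It was 1.03% in *Ash1L* shRNA sample 1 (0.76% to 1.38%) and 2.44% in sample 2 (1.76% to 3.35%). The controls lay within each other's intervals, and both *Ash1L* shRNA samples lay below the controls. Such a separation of the groups also held for the CPM of 53.2% of all genes tested. The interval of *Ash1L* shRNA sample 2 narrowly overlapped that of control sample 1, at 3.35% against 3.33%. The *Ash1L* shRNA samples had intervals that did not overlap each other. These intervals cover counting error only. Of 13 tested genes within 100 kb of *C4a* or *C4b*, 1 was UP and 0 were DOWN, and their log2 fold changes ran from -1.05 to 0.86 with a median of -0.09. The nearest, *Stk19*, lay 529 bases from *C4a* and had a log2 fold change of 0.31. *Tnxb*, which encodes the matrix protein tenascin-X, was UP with 2.48 and 3.96 CPM in the controls and 5.99 and 5.93 CPM with *Ash1L* shRNA, which is 0.86 on the log2 scale. *Skiv2l*, an RNA helicase gene, had -0.19, and *Nelfe*, a subunit gene of a transcription pausing factor, had -0.40. The complement genes *Cfb* and *C2* of the same locus had -0.81 and -1.05, the lowest values among these 13 genes, and neither was called in the main fit. In some other fits *C2* was DOWN, among them DESeq2 and the likelihood ratio test, where 6.35% and 7.81% of all genes were.

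**Figure D3:**
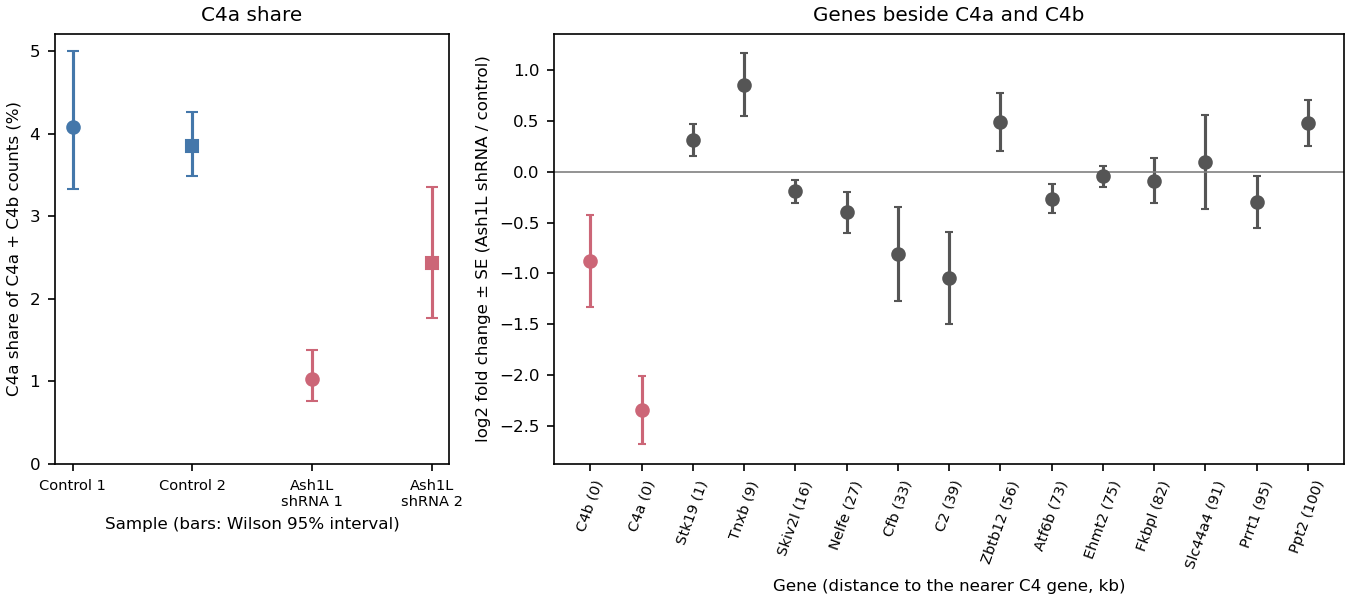
Left, percentage of the *C4a* plus *C4b* counts assigned to *C4a* in each sample with Wilson 95% intervals. Right, log2 fold change (*Ash1L* shRNA over control) ± standard error for *C4b*, *C4a* and the 13 tested genes within 100 kb, ordered by distance in kb to the nearer C4 gene, with *C4a* at -2.35 below all of its neighbours.

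*C3* (ENSMUSG00000024164, chromosome 17 from 57203970 to 57228136, minus strand) encodes the protein on which all complement pathways converge. It had 40.0 and 65.2 CPM in the controls, from 565 and 2286 counts, and 18.0 and 4.87 CPM in the *Ash1L* shRNA samples, from 494 and 101 counts. Both *Ash1L* shRNA samples lay below both controls, and they differed 3.70-fold from each other. The means were 52.6 ± 17.8 CPM (SD, n = 2) in control and 11.5 ± 9.31 CPM (SD, n = 2) in *Ash1L* shRNA samples. This made a log2 fold change of -2.19 (standard error 0.64), with an unadjusted p of 0.0208 and an adjusted p of 0.260 in edgeR's quasi-likelihood test. The call was lost without control sample 2, at -1.797 with an unadjusted p of 0.130 in the same test, and with nearly all genes kept in the test, at -2.19 with an unadjusted p of 0.101. Without *Ash1L* shRNA sample 1 the log2 fold change was -3.45, and without *Ash1L* shRNA sample 2 it was -1.55. In a fit scaled to microglia marker counts *C3* was still DOWN at -2.12, where the median of all genes was 0.46.

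The promoter of *C3* is shown as that of the member with a called difference that the table of promoters held. Capitals mark TTNNGNAA, the C/EBP motif, on either strand and TATAAA, the TATA box, on the gene's strand.
C3, chr17:57228087-57228386, minus strand: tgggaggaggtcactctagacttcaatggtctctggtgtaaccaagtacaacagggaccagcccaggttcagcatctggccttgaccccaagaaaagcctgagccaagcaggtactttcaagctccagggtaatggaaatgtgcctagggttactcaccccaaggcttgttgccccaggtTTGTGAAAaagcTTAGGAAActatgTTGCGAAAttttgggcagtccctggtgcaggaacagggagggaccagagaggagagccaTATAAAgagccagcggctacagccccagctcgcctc
TTNNGNAA occurred 3 times, beginning at -70, -58 and -45 bases from the annotated start, and TATAAA occurred once, beginning 14 bases after it. TATAAA was found in 8.3% of all promoters of this length. No match to the NF-kB motif or to GAS (TTCNNNGAA, both strands) was in this window.

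Markers of blood-derived myeloid cells are set beside *C3*. Of the 4 tested, *Ly6c2* and *Ccr2* were DOWN and *Mpo* was UP. The summed level of 9 monocyte and neutrophil markers was 20.5 and 38.5 CPM in the controls and 8.32 and 6.90 CPM in the *Ash1L* shRNA samples. *Ly6c2*, a surface protein of inflammatory monocytes, had 10.2 and 20.6 CPM in the controls and 1.57 and 1.25 CPM with *Ash1L* shRNA, which is -3.45 on the log2 scale. *Ccr2*, the chemokine receptor that brings monocytes into tissue, had 5.74 and 9.98 CPM against 3.18 and 1.79 CPM, a log2 fold change of -1.67. *Plac8* had 2.62 and 6.78 CPM against 2.12 and 2.32 CPM and was not called. *Mpo*, a neutrophil granule enzyme named here after its values were seen, had a log2 fold change of 1.82 with at most 18 counts in any sample. The neutrophil genes *S100a8*, *S100a9*, *Camp* and *Ngp* lay under 0.5 CPM in every sample. Their part in the level of *C3* was not tested. The 3 genes outside the lists whose log2 CPM followed that of *C3* most closely over the 4 samples were *Ccl5*, a chemokine, and *H2-Aa* and *H2-Eb1*, chains of class II major histocompatibility molecules, with root mean square distances of 0.21, 0.30 and 0.35 among 12000 genes. *Ccl5* had 5.60 and 12.4 CPM in the controls and 2.702 and 0.92 CPM in the *Ash1L* shRNA samples. With 4 samples in 2 groups, this likeness is a description.

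*Serping1* (ENSMUSG00000023224, chromosome 2 from 84765387 to 84775444) encodes C1 inhibitor, which blocks the proteases C1r and C1s. It had 13.8 and 26.0 CPM in the controls and 12.3 and 9.70 CPM in the *Ash1L* shRNA samples. Both *Ash1L* shRNA samples lay below both controls, sample 1 by a small margin against control sample 1. *Serping1* differed by -0.86 on the log2 scale (standard error 0.32), with an unadjusted p of 0.0331 and an adjusted p of 0.269 in edgeR's quasi-likelihood test. Without control sample 2 it had -0.33 and was not called, nor was it called without *Ash1L* shRNA sample 2, at -0.71. Blocked by replicate number, *Serping1* was not called, at -0.80 with an unadjusted p of 0.0596 in the quasi-likelihood test.

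The controls differed for several members. Control sample 2 held 1.64, 1.74, 1.63, 1.88 and 1.83 times the level of control sample 1 for *C4a*, *C4b*, *C3*, *Serping1* and *C5ar1* and 1.27 times for *C3ar1*, whereas C1q differed 1.02-fold and the microglia marker sum 1.08-fold. Astrocytes and fibroblasts are among the cells that can make *C4b*, *C3* and *Serping1*. The summed level of 10 astrocyte markers was 5356 and 5649 CPM in the controls and 4236 and 3065 CPM in the *Ash1L* shRNA samples, with 7 of 10 DOWN, among them the glutamate transporter genes *Slc1a2* and *Slc1a3* and the glycolytic gene *Aldoc*, and 0 at a level of 0. The list of 12 genes of reactive astrocytes summed to 519 and 583 CPM in the controls and 600.0 and 705 CPM in the *Ash1L* shRNA samples, with 3 of 12 UP and 0 DOWN. *Gfap*, its most abundant gene, had a log2 fold change of 0.00, *Vim* had 0.59 and was not called, and *Serpina3n* was UP at 0.52. Fibroblast markers summed to 157 and 215 CPM in the controls and 211 and 229.7 CPM in the *Ash1L* shRNA samples, with 2 of 8 UP, *Col3a1* among them at 1.10, and 1 DOWN. The part of these cell types in the levels of *C4b*, *C3* and *Serping1* was not tested.

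**Figure D4:**
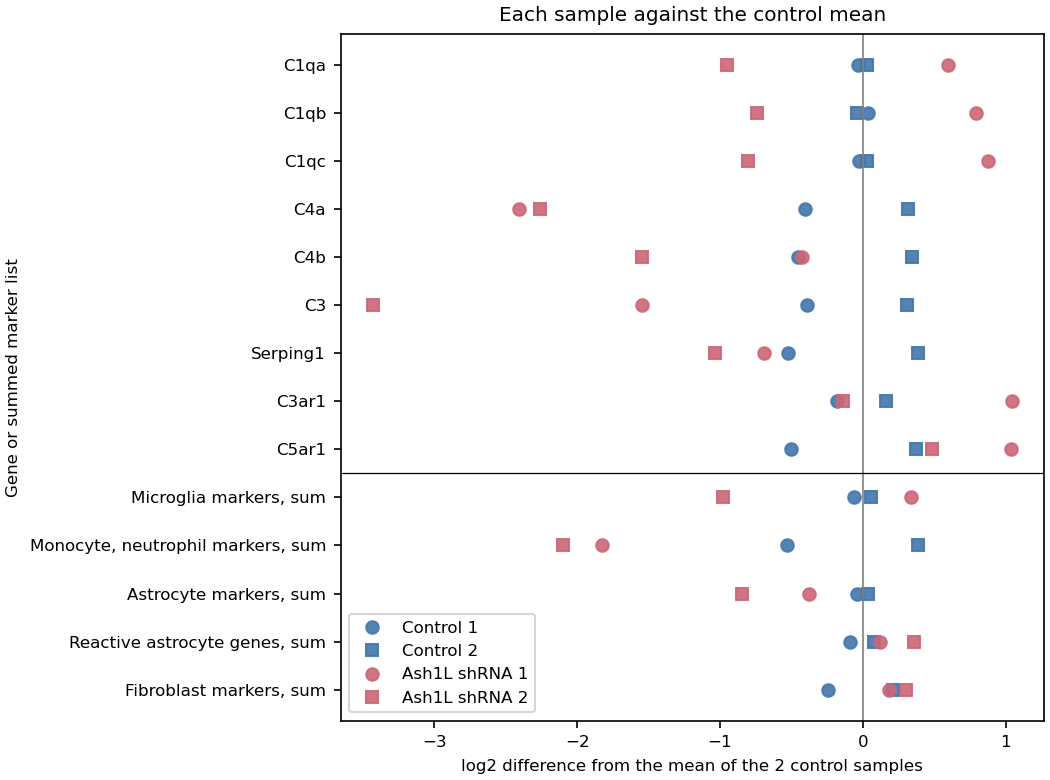
Log2 difference of each sample from the mean of the 2 control samples for the 9 members (above the line) and for summed marker lists (below it), control in blue and *Ash1L* shRNA in red, with circles for replicate 1 and squares for replicate 2. The C1q chains and microglia markers split the *Ash1L* shRNA samples to both sides of 0, while *C4a*, *C3* and the monocyte and neutrophil markers are below the controls in both.

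*C3ar1* (ENSMUSG00000040552, chromosome 6 from 122847138 to 122856161) and *C5ar1* (ENSMUSG00000049130, chromosome 7 from 16246743 to 16259540) encode the receptors for the small fragments released from C3 and C5, and in brain both are found mainly on microglia. *C3ar1* had 6.30 and 8.01 CPM in the controls and 14.8 and 6.51 CPM in the *Ash1L* shRNA samples. *Ash1L* shRNA sample 2 lay between the controls, so the groups overlapped. Its log2 fold change was 0.57 (standard error 0.40) and an adjusted p of 0.487 in edgeR's quasi-likelihood test. Without *Ash1L* shRNA sample 2 *C3ar1* was UP at 1.03, and without *Ash1L* shRNA sample 1 it had -0.16. *C5ar1* was the scarcest member, with 11 and 50 counts in the controls and 62 and 32 counts in the *Ash1L* shRNA samples, or 0.78 and 1.43 CPM against 2.26 and 1.54 CPM. Both *Ash1L* shRNA samples lay above both controls, by a small margin for sample 2. The log2 fold change was 0.74 (standard error 0.46) and an adjusted p of 0.437 in the quasi-likelihood test.

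Relative to the microglia marker sum, both receptors were higher in both *Ash1L* shRNA samples. For both ratios the groups did not overlap, and the same held for the CPM of 53.2% of all genes tested. In *Ash1L* shRNA sample 2 the marker sum was 514 CPM, against 971 and 1053 CPM in the controls, while the CPM of *C3ar1* lay between the controls. *C3ar1* was 0.65% and 0.76% of that sum in the controls and 1.15% and 1.27% in the *Ash1L* shRNA samples. *C5ar1* was 0.080% and 0.135% in the controls and 0.177% and 0.301% in the *Ash1L* shRNA samples. In a fit scaled to microglia marker counts in place of library sizes, which moved the median log2 fold change of all genes to 0.46, *C3ar1* had 0.78 and *C5ar1* 1.10, and neither was called.

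Per kilobase of exonic length, the order of mean levels over all samples was *C1qa*, *C1qb*, *C1qc*, *C4b*, *Serping1*, *C3*, *C3ar1*, *C4a* and *C5ar1*, from 144 to 0.58 CPM per kilobase. *Serping1* and *C3*, with means of 6.65 and 6.23 CPM per kilobase, did not differ beyond their spread over samples. In the controls *C3* was above *Serping1*, at 7.78 and 12.7 against 5.94 and 11.2 CPM per kilobase, and in the *Ash1L* shRNA samples it was below, at 3.51 and 0.95 against 5.31 and 4.17.

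Beyond the members, 44 further complement genes were listed by role, of which 43 were in the tables and 27 passed the filter. Of these 27, 1 was UP and 0 were DOWN, where 8.61% and 8.28% of all genes were. The median log2 fold change was -0.17, with 20 of the 27 below 0. Among the initiators, 6 genes were tested and 0 were called. *C1ra* and *C1s*, which encode the proteases bound to C1q, had log2 fold changes of -0.30 and -0.44. *C2*, whose product joins C4 in the enzyme that cuts C3, had 5.31 and 10.1 CPM in the controls and 5.08 and 2.41 CPM in the *Ash1L* shRNA samples, and *Masp1*, a protease of the lectin pathway, had a log2 fold change of 0.17. In the alternative pathway, *Cfb*, the protease component factor B, had 9.92 and 23.8 CPM against 12.3 and 7.14 CPM. *Cfp*, which encodes the stabilizing protein properdin, had a log2 fold change of -0.28, and *Cfd*, the gene for factor D, had between 0 and 18 counts and was not tested.

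The called gene was *Hc*, which encodes C5, the component cut after C3. It had 6 and 6 counts in the controls and 23 and 15 counts with *Ash1L* shRNA, which is 1.56 on the log2 scale with an unadjusted p of 0.0464 and an adjusted p of 0.290 in edgeR's quasi-likelihood test, and so rests on few reads. *Hc* was not called with DESeq2, with the widest filter, with either block, scaled to microglia markers, without control sample 2 or without either *Ash1L* shRNA sample. Other terminal components were scarce, with *C8g* between 2.12 and 2.99 CPM, *C7* between 0.82 and 1.70 CPM and *C6* with at most 13 counts.

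Regulators that protect host cells included the most abundant of these genes, and 0 were called. *Clu*, encoding the fluid-phase inhibitor clusterin, had 780 and 715 CPM in the controls and 688 and 646 CPM with *Ash1L* shRNA, which is -0.17 on the log2 scale. *Vtn*, encoding vitronectin, had -0.39, while *C4bp* had at most 10 counts. The membrane regulators *Csmd1*, *Csmd3* and *Susd4*, which are expressed by neurons, had log2 fold changes of -0.09, -0.22 and -0.14, and *Cr1l*, the rodent regulator Crry, had -0.16. Among the receptors, *Itgam* and *Itgb2*, the subunits of complement receptor 3, had -0.16 and -0.36. *Itgax*, a subunit of complement receptor 4 that activated microglia express, had 6.94 and 12.9 CPM in the controls and 36.9 and 3.81 CPM in the *Ash1L* shRNA samples, again on opposite sides of the controls. *Cr2* had a log2 fold change of 0.14.

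Marker lists of other cell types were set beside the members. Endothelial markers, led by *Slco1a4*, *Flt1* and *Cldn5*, summed to between 264 and 301 CPM over all samples, with 0 of 8 called. Border macrophage markers, led by *Mrc1*, summed to 23.1 and 27.1 CPM in the controls and 22.2 and 20.8 CPM in the *Ash1L* shRNA samples, and 1 of 6, *Mrc1*, was DOWN at -0.47. The choroid plexus genes *Kcnj13*, *Kl* and *Ttr* stayed under 5 CPM. Of the red blood cell genes, *Beta-s* (beta-globin) was DOWN at -0.50 and *Hba-a1* and *Hba-a2*, which share sequence, were listed at 0 in every sample. Over the 4 samples, the genes most like summed C1q were *Cd84*, *Plek* and *Abcc3*, with root mean square distances of 0.05, 0.06 and 0.08 on the log2 CPM scale among 12000 genes. *Cd84*, a receptor of immune cells, had 12.96 and 12.1 CPM in the controls and 20.8 and 6.71 CPM in the *Ash1L* shRNA samples.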

How the data were processed

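Bulk RNA of mouse PFC was sequenced in 2 groups with 2 samples each. Per the methods, STAR alignment to mm10 was followed by featureCounts, and the authors deposited raw counts for each gene. The sample protocol instead names Cutadapt and TopHat2, and strand and multiple-mapping settings are not given in the sources used here, so copies such as *C4a* and *C4b* may share reads.

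Counts were filtered with filterByExpr, normalized with TMM and tested with glmQLFit (robust) and glmQLFTest in edgeR 4.0.16 (R 4.3.3), with Benjamini-Hochberg adjustment over 16232 genes. Standard errors were obtained from the log2 fold change and F. Alternatives were DESeq2 1.42.0 and the likelihood ratio test, other scalings, filters and limits, each sample left out, and the replicate block. Same-numbered samples did not deviate together (correlation -0.11 across genes), so samples were taken as unpaired, and a crossed pairing was tried once the data had been seen. Replicates differed beyond counting error (chi-square per degree of freedom of 15.5 and 44.6). Scripts were tested on simulated counts.

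Members and lists were chosen with earlier results of these data known. Named genes were all members, the 4 most abundant of each complement role, the 3 most abundant of each marker list, the 6 tested genes nearest to the C4 genes and the 3 genes most like *C3* and C1q (mean CPM of at least 5). Some genes this rule names are not reported here. 5 listed symbols were matched through RefSeq synonyms. Lengths and positions came from GENCODE vM21.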

Additional observations from a re-analysis of the deposited data

How the results depend on the processing

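*C4a* kept its direction and its call in all 14 alternative fits, and *C5ar1* kept its direction and stayed uncalled. *C3*, *C4b* and *Serping1* also kept their direction in all 14, while their calls changed in some of these fits. With each sample left out in turn, log2 fold changes ran from -0.95 to 0.60 for *C1qa*, -0.74 to 0.80 for *C1qb*, -0.81 to 0.88 for *C1qc*, -0.85 to 0.75 for summed C1q, -0.16 to 1.03 for *C3ar1*, -3.45 to -1.55 for *C3*, -1.56 to -0.43 for *C4b*, -1.58 to -0.46 for summed C4 and -1.23 to -0.33 for *Serping1*. Calls ran from 1 to 7 members DOWN, 0 to 4 UP, and for the other complement genes 0 to 7 DOWN and 0 to 1 UP, while 1.86% to 16.5% of all genes were DOWN and 2.57% to 14.4% were UP. The other complement gene called UP was not always *Hc*, being *Cfd* without *Ash1L* shRNA sample 1 and *Itgax* without sample 2. A sample left alone in its group is assumed to vary like the others.

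With the replicate block *C1qa* and summed C1q reversed to -0.173 and -0.049, and *Serping1* lost its call at -0.80. Of the other complement genes 1 was then DOWN and 0 were UP, where 6.28% and 6.48% of all genes were. The block changed no other member's call. With the crossed block, *C1qa* had -0.164, summed C1q -0.045, *C4b* -0.93 and summed C4 -0.96, the last pair now DOWN. There 2 other complement genes, *Cfb* and *C2*, were DOWN and 0 UP, where 10.7% and 9.49% of all genes were. At an adjusted p under 0.05, 0 members were DOWN and 0 other complement genes UP in edgeR's quasi-likelihood test, against 3 and 1 at an unadjusted p under 0.05. The likelihood ratio test brought summed C4 past the limit at -0.92. It gave 1 other complement gene DOWN, *C2*, as did DESeq2, where 7.81% and 6.35% of all genes were DOWN. With at least 1 count in any sample *C3* kept its size at -2.19 but lost its call, with an unadjusted p of 0.101 in the quasi-likelihood test. Under that filter 2 other complement genes, *Vtn* and *C2*, were DOWN, as were 7.51% of all genes. With at least 10 counts in every sample 0 other complement genes were UP, since *Hc* was no longer tested, where 8.55% of all genes were. Scaled to microglia markers, *Serping1* lost its call at -0.45. That scaling moved the median log2 fold change of all genes to 0.46 and left 0.308% of all genes DOWN, against 8.28% before. Apart from the last filter, the cause was not tested. *C5ar1* and *Hc* rest on at most 62 and 23 counts in any sample.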
